A study of Mus musculus with 12 samples.

Results

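In embryonic stem cells (ESC), 64042 FGFR1 interaction anchors had no counterpart in the FGFR1 map of neuronal committed cells (NCC). An anchor here is a stretch of genome, cut at restriction sites, to which the ends of HiChIP read pairs were assigned. The anchors were chosen by their FGFR1 values: an autosomal anchor of the ESC library was taken when 6 or more read-pair ends fell on it, pairs with both ends inside it left out, and when it shared no base with any anchor of the NCC library. They made up 32.8% (95% Wilson interval 32.6 to 33.0) of the 195088 autosomal ESC FGFR1 anchors with that many ends, and the other 131046, which overlapped an NCC anchor, served as the comparison. Because FGFR1 values of both cell types chose the ESC-only anchors, those values are given as a description and no test rests on them. Hi-C and CTCF HiChIP at the same places were not used in the choice and carry the comparisons.

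ESC were E14Tg2A mouse cells kept with 100 U/mL of LIF, and NCC were the same line after 48 hours in 1 µM retinoic acid without LIF. Both states thus come from 1 cell line, with no genetic change between them, and the ESC carry no retinoic acid treatment. Each cell type gave a Hi-C, an FGFR1 HiChIP and a CTCF HiChIP map, 6 maps in all, and each map merges 2 biological replicates, so no spread between replicates can be given. The files hold no expression values, so the identity of the cells could not be checked against marker genes.

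Hi-C joins and sequences pieces of DNA that lie close together in the nucleus, and HiChIP adds an antibody step that keeps pairs near a chosen protein. CTCF is a DNA-binding protein that, with cohesin, holds loop bases and domain borders. FGFR1 is best known as a receptor tyrosine kinase for fibroblast growth factors at the cell surface, and a nuclear form is known to act on chromatin together with the coactivator CBP. FGF signalling through ERK is a route by which ESC leave pluripotency, and retinoic acid activates Hox and other neural genes through its nuclear receptors.

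The sequences of 3 ESC-only anchors are shown as examples of strong ones. Of these, 2 lay at pluripotency genes and 1 was among the 10 with most FGFR1 ends. Each sequence is read from the plus strand of RefSeq's GRCm38 (mm10) genome, with the motif named for it in capitals. Other searched motifs, among them the restriction site GATC and the retinoid receptor site AGGTCA, are in small letters where they occur. The first is the centre of the anchor at the promoter of Tdgf1, a Nodal co-receptor of ESC (chr9:110947847-110948046), with an octamer, the site type of Pou5f1. The second is the centre of an intergenic anchor near Klhdc7a (chr4:140003670-140003869), also with an octamer. The third is the stretch of the L1td1 anchor that holds the CTCF consensus (chr4:98731037-98731116).
Tdgf1: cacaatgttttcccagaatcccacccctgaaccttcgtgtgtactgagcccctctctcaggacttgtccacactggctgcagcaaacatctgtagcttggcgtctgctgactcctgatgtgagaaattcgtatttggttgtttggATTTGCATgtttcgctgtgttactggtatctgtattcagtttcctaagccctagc
Klhdc7a: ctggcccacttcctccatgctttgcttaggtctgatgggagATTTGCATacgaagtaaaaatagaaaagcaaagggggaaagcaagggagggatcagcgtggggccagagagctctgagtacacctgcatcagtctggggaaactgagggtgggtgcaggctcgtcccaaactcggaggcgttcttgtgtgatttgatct
L1td1: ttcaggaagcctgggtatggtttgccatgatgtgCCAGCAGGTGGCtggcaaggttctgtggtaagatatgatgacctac

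By their letters, octamer and estrogen-related receptor sites were about as common in ESC-only anchors as in anchors found in both cell types. The GC-box and the CTCF consensus were rarer in ESC-only anchors than in anchors found in both. Within a 2000-base window on the anchor centre, both strands searched, the octamer ATGCAAAT was present in 15.1% of ESC-only anchors, in 14.5% of anchors found in both cell types at the same strength, and in 16.01% of all windows of that length in the genome. The estrogen-related receptor site TCAAGGTCA, the site type of Esrrb, stood at 4.77%, 4.58% and 4.31%, and the GC-box GGGCGG of Sp1 at 17.2%, 18.97% and 16.03%. The CTCF consensus stood at 1.29% of ESC-only anchors against 1.66% of anchors in both and 1.00% of the genome. Such matches describe the letters of the window and not a bound site.

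The libraries differed in depth. On chromosomes 1 to 19 and X the totals for ESC and then NCC were 20745652 and 21228099 pairs of Hi-C, 2662606 and 3203872 pairs by FGFR1 antibody, and 1218098 and 1056437 by CTCF antibody. Coverage of the Hi-C maps also differed in places: in 67 of 2346 1-mb bins NCC had under 0.333 of the ESC ends (1548 ESC-only anchors), and in 26 ESC had under 0.333 of the NCC ends (565 anchors). Pairs inside a single anchor made up 17.4% to 28.4% of a library, with the highest share in ESC CTCF HiChIP. All changes below are log2 ratios of NCC over ESC after division by the library's autosomal pairs between anchors. Every interval or p-value on them covers at most counting error of these pooled libraries. The Cochran-Mantel-Haenszel comparisons count a pair at each anchor it touches, so they do not cover that error in full.

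ESC-only anchors were weaker than the rest. They held a median of 15 FGFR1 ends, against 20 for anchors found in both cell types, and were shorter, with a median of 2069 bp against 2552 bp. The share of anchors that were ESC-only was 51.2% at 6 ends, 44.2% at 10 to 11 ends and 22.7% at 20 or more, and among anchors with at least 50 ends only 515 of 7900 (6.52%) were ESC-only. With the rule turned round, 89073 of 220713 NCC anchors (40.4%) overlapped no ESC anchor. At the limit itself, 2002 ESC-only anchors had exactly 6 ends, and 1481 more without an NCC anchor lay just outside with 5. Because of this dependence on strength, many values for anchors in both cell types are weighted to the strengths of the ESC-only anchors, in 8 classes. These are the profiles, the base content, and the shares with a motif, a gene part, or a Hi-C or CTCF anchor. Values for single-anchor calls, interactions, links and gene lists are not weighted by strength.

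Most ESC-only anchors lay within 5 kb of an NCC FGFR1 anchor, though the gap expected from the density of NCC anchors alone was not computed. The median gap was 2526 bp, 6128 anchors directly abutted an NCC anchor, and 26.4% lay more than 5 kb from one. Beyond 20 kb there were 1559 (2.43%) and beyond 100 kb 46, with the widest gap, 747074 bp, near Luzp2 on chromosome 7. Those beyond 20 kb lay in gene-poor sequence: their median strength was 10 ends, 66.9% were intergenic, and a median of 2 genes lay within a 1-mb span, against 6 for ESC-only anchors as a whole.

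**Figure D1:**
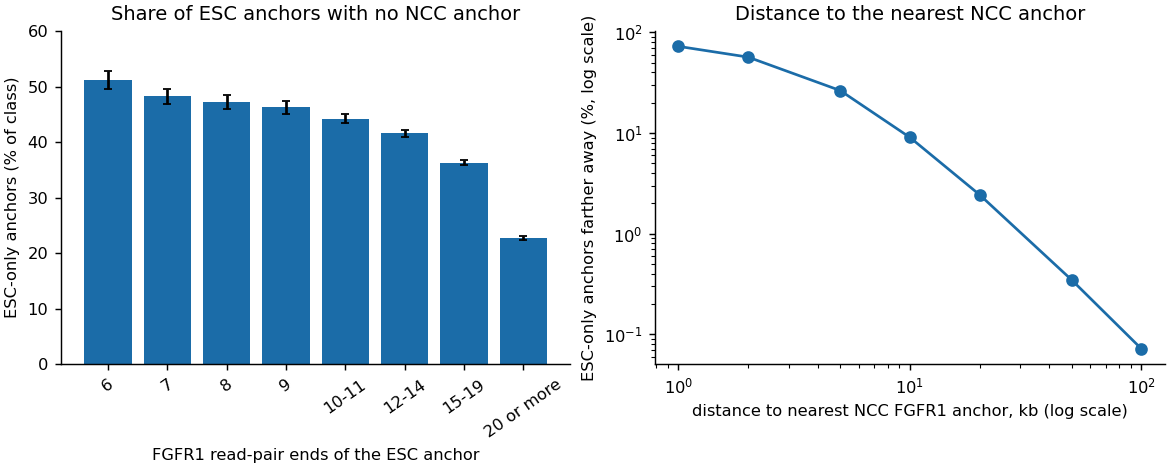
Share of ESC FGFR1 anchors that were ESC-only against the number of read-pair ends on the anchor (left), and the share of ESC-only anchors lying farther than a given distance in kb from the nearest NCC FGFR1 anchor (right). The share fell from 51.2% at 6 ends to 22.7% at 20 or more, and 26.4% of ESC-only anchors lay more than 5 kb from an NCC anchor.

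Seen as a profile over the surrounding 50 kb on each side, ESC FGFR1 ends per anchor and 2-kb bin, per 1000000 ends of the library, stood at 4.08 on the centre of ESC-only anchors and NCC FGFR1 ends at 0, which the rule fixes. Between 2 and 6 kb away the same libraries stood at 0.644 and 0.661, and between 20 and 50 kb away at 0.923 and 0.876. Hi-C did not share this gap in NCC: at the centre it was 1.42 in ESC and 1.36 in NCC. CTCF HiChIP at the centre was 1.42 in ESC and 1.30 in NCC. At anchors found in both cell types the centre values were higher, 1.86 and 1.80 for Hi-C and 2.45 and 2.50 for CTCF.

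**Figure D2:**
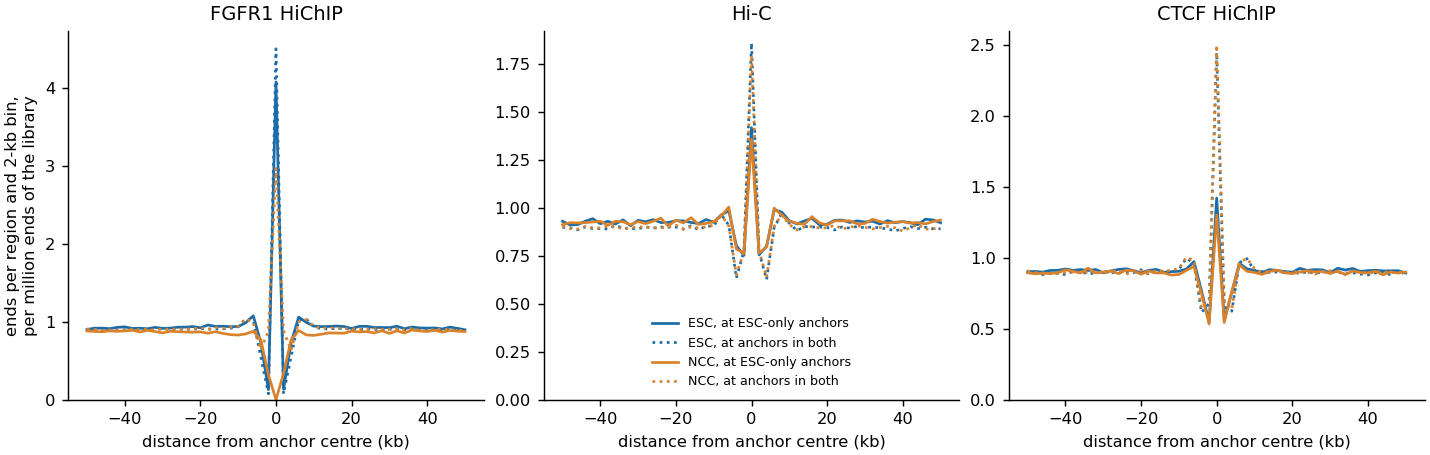
Read-pair ends per anchor and 2-kb bin, per 1000000 ends of the library, against the distance in kb from the anchor centre, for FGFR1 HiChIP, Hi-C and CTCF HiChIP in ESC and NCC, at ESC-only anchors and at anchors in both cell types. NCC FGFR1 is 0 at the centre of ESC-only anchors by choice, while the Hi-C and CTCF lines keep a centre peak in both cell types.

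Promoters were less common among ESC-only anchors than among anchors of like strength in both cell types. An anchor overlapped a promoter, taken as the 1 kb upstream of a GENCODE transcription start, in 6457 cases or 10.1% (interval 9.85 to 10.3), against 13.2%. For protein-coding genes the shares were 6.16% and 9.09%, for untranslated regions 8.63% and 11.6%, and for any exon 22.4% and 25.6%. When each anchor was put in 1 class, in the order promoter, exon, intron, intergenic, 30.7% were intronic (29.4% in both) and 45.1% intergenic (43.5%). CpG content followed, at 8.67 against 9.38 per kb, while GC content was 42.5% and 42.5%. These are shares of a set chosen by its FGFR1 values, given without a test.

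Genes differed widely in how many of their FGFR1 anchors were ESC-only. At least 1 ESC-only anchor lay in the body of 10214 of the 17452 protein-coding genes with an anchor, and on a promoter of 3631 of 14142. Apart from 2 very wide gene models, of Gm20388 and Fgfr2, the highest counts were in Dlg2, a synaptic scaffold, with 62 of 174 anchors ESC-only, Macrod2, an ADP-ribose hydrolase gene, with 60 of 174, Cntnap2, a neurexin-like adhesion protein, with 54 of 156, Pde4d, a cAMP phosphodiesterase, with 54 of 136, and Lrp1b, a lipoprotein receptor relative, with 50 of 110. Against the 30.5% of all gene-body anchors, the share was highest in Dnah7c, an axonemal dynein gene of a family of close copies where alignment is less certain, at 12 of 15. No ESC-only anchor lay in the body of Ift80, a gene of ciliary transport, with 16 anchors, nor in Raet1e or Zfp609, with 15 each. These genes were picked out after their counts were seen.

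Hi-C and CTCF anchors lay less often on ESC-only anchors, in both cell types alike. An ESC Hi-C anchor overlapped 68.1% of them and an NCC Hi-C anchor 66.6%, against 79.6% and 78.4% of anchors in both at like strength. An ESC CTCF anchor overlapped 35.1% and an NCC CTCF anchor 33.2%, against 55.2% and 56.1%. Sorted by cell type, 15.3% of ESC-only anchors lay under a CTCF anchor in both cell types (36.4% of anchors in both), 19.7% only in ESC (18.8%), 17.9% only in NCC (19.7%) and 47.1% in neither (25.1%). For Hi-C, 54.7% lay under an anchor in both (69.5% of anchors in both), 13.4% only in ESC (10.1%), 11.8% only in NCC (8.86%) and 20.03% in neither (11.5%). Sites under a Hi-C anchor of a single cell type were thus split between ESC and NCC at 13.4% and 11.8%, although their FGFR1 anchor was of ESC alone. Anchors in both were split alike, at 10.1% and 8.86%.

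**Figure D3:**
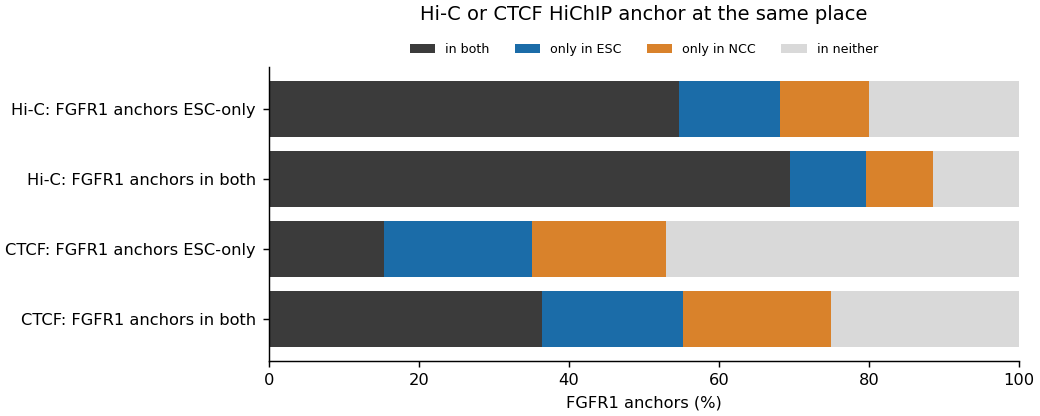
Percent of ESC-only FGFR1 anchors, and of anchors in both cell types weighted to the same strengths, that lie under a Hi-C or CTCF HiChIP anchor in both cell types, only in ESC, only in NCC or in neither. No CTCF anchor in either cell type covered 47.1% of ESC-only anchors, against 25.1% of the comparison.

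Summed over all ESC-only anchors, Hi-C was almost level between the cell types. The anchors took part in 5924643 distinct Hi-C pairs in ESC and 6076476 in NCC, a log2 change of -0.017 (95% interval -0.019 to -0.015, exact two-sided binomial test, Benjamini-Hochberg adjusted p over 4 pooled tests 3.02e-91). Against anchors in both cell types, compared within strength classes, the change was -0.0076 (interval -0.0094 to -0.0059, Cochran-Mantel-Haenszel test, adjusted p 1.47e-17). This difference was -0.021 for ESC-only anchors with no NCC anchor within 5 kb and -0.013 within classes of strength and length. On single chromosomes that difference ran from -0.044 to 0.058 and was below 0 on 11 of 19. With only anchors under a Hi-C anchor in both cell types, an alternative added after seeing the data, the difference turned to 0.0019. The small p-values rest on the large counts and include no spread between replicates. In the comparison with anchors in both, a pair also counted at each anchor it touched, so the interval and p-value understate counting error. Summed over anchors in both, ESC Hi-C pairs came to 22439678, where the library held 16369034 autosomal pairs between anchors.

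Summed over all ESC-only anchors, CTCF HiChIP was lower in NCC, though not in every class of FGFR1 strength. The distinct CTCF pairs numbered 210893 in ESC and 191454 in NCC, a log2 change of -0.086 (interval -0.095 to -0.077, exact binomial test, adjusted p 5.09e-79). It was -0.032 with pairs inside an anchor counted and -0.050 with CTCF anchors centred within 5 kb. Relative to anchors in both at like strength the change was -0.16 (interval -0.17 to -0.15, Cochran-Mantel-Haenszel test, adjusted p 7.06e-219), again with a pair counted at each anchor it touched. This difference was below 0 on 19 of 19 chromosomes, from -0.31 to -0.027. At NCC-only anchors, chosen by the reverse rule, the summed CTCF change was 0.091 and the Hi-C change 0.054. Where only anchors under a CTCF anchor in both cell types were kept, also added after seeing the data, the change at ESC-only anchors turned to 0.020 and the difference from anchors in both shrank to -0.025. The CTCF change also moved with FGFR1 strength. At ESC-only anchors it was above 0 in each class from 6 ends (0.46) to 12 to 14 ends (0.12). It was below 0 only at 15 to 19 ends (-0.087) and at 20 or more (-0.23). At anchors in both it ran from 0.42 at 6 ends to -0.049 at 20 or more. In the weakest class the change at ESC-only anchors was thus not below that at anchors in both.

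**Figure D4:**
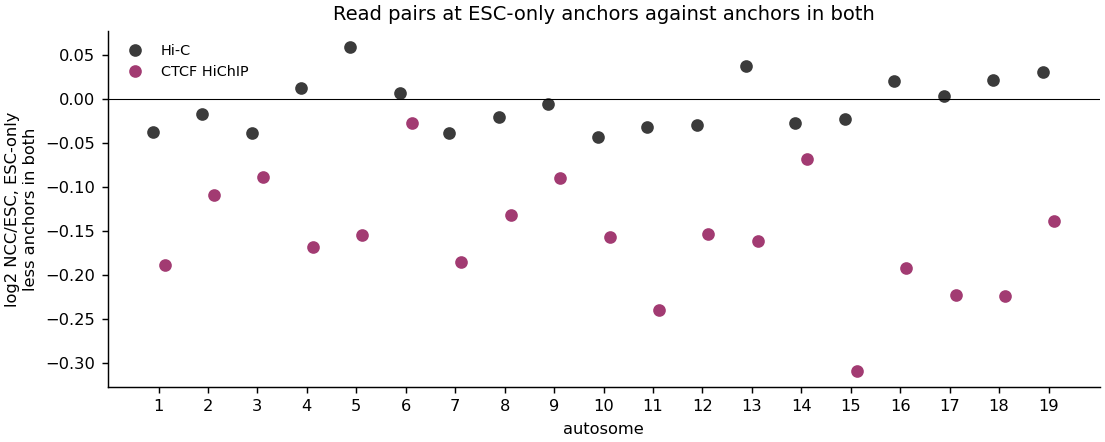
Change at ESC-only anchors less that at anchors in both cell types, as log2 of NCC over ESC within strength classes, for Hi-C and CTCF HiChIP on each of the 19 autosomes. The CTCF points all lie below 0, from -0.31 to -0.027, while the Hi-C points lie on both sides of it.

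Single anchors moved in both directions. Of all anchors with 10 or more Hi-C pairs, 32.0% passed the exact binomial test (adjusted p at most 0.05 over the whole table) as lower in NCC and 29.3% as higher. Among ESC-only anchors 17830 of 51193 (34.8%) were lower and 16267 (31.8%) higher, against 30.8% and 28.3% of anchors in both. For CTCF the background was 20.6% lower and 19.3% higher. ESC-only anchors were called lower in 5569 of 18409 cases (30.3%) and higher in 4619 (25.1%), against 18.2% and 17.9% of anchors in both. A library held no pair at all in 93.8% of the lower CTCF calls and 48.1% of the lower Hi-C calls, that is, no anchor of that library had been placed there. Both directions lay above the background, and these shares were not matched for anchor strength or length.

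The partners of ESC-only anchors were mostly anchors of both cell types. They joined in 816157 FGFR1 interactions in ESC, 86.7% of the read pairs within a chromosome at a median span of 141 kb, much as for anchors in both (86.2%, 136 kb). Of the partner ends, 27.3% were ESC-only and 71.95% in both (26.01% and 72.98% of all ends of the map). Of 584077 links of 20 kb or more with an ESC-only anchor, 24.5% had at least 1 Hi-C pair in ESC and 23.8% in NCC, against 34.6% and 34.0% for links between anchors in both at like distances. CTCF pairs were found for 2.04% in ESC and 1.72% in NCC, a change in pairs of -0.19, and for links with both ends ESC-only the change was -0.37, against -0.062 between anchors in both. The link shares were matched for distance only, not for anchor strength or length, and anchors in both were stronger and longer. The other values here were not matched, and none of these link values was tested.

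The strongest FGFR1 links of 20 kb or more with an ESC-only end held 8 to 10 ESC read pairs each and none in NCC by the choice of anchors. The Aire anchor was joined by 10 pairs to an anchor at Icosl, a costimulatory ligand gene 23.3 kb away, and Hi-C pairs over the same span were 54 in ESC and 50 in NCC. An anchor in the transcript Gm6722 was joined by 10 pairs to one at Rbm25, a splicing factor gene, with 23 and 8 Hi-C pairs. Within Macf1, a cytoskeletal linker gene, 8 pairs spanned 33.4 kb, with 51 and 20 Hi-C pairs. In Gtf2ird1, a transcription factor gene, 8 pairs joined 2 ESC-only anchors 30.7 kb apart, with 5 and 10 Hi-C pairs. Hi-C contacts at these links were thus seen in both cell types. The links were ranked by their FGFR1 pairs, and their values were not tested.

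The 10 ESC-only anchors with most FGFR1 ends, 85 to 115 each, lay at most 6997 bp from an NCC anchor, and 8 of them had fewer Hi-C pairs in NCC after scaling. The highest, with 115 ends, lay in Btbd9 (chr17:30474243-30478349), with 261 Hi-C pairs in ESC and 248 in NCC (adjusted p 0.432, exact binomial test). The next, with 114 ends, lay 7.14 kb from Myh9, a non-muscle myosin gene (chr15:77846175-77852451), and had 1082 Hi-C pairs in ESC and 492 in NCC (log2 -1.19, adjusted p 1.79e-54), and 60 and 31 CTCF pairs (adjusted p 0.0147). The anchor on the promoter of Rasgrp2, a Rap exchange factor, had 813 and 687 Hi-C pairs (adjusted p 0.000174), and that of Abca4, a retinoid transporter, 763 and 460 (adjusted p 7.03e-20). The intergenic anchor near Klhdc7a, printed above, had 94 FGFR1 ends, with 708 and 544 Hi-C pairs (adjusted p 3.77e-07) and 49 and 30 CTCF pairs (adjusted p 0.139). The anchor in Platr6, a noncoding transcript of ESC, went the other way, with 210 and 312 (adjusted p 0.000133). At Aire, the anchor also reached into the neighbouring Dnmt3l, a DNA methylation cofactor of ESC and germ cells. It held 88 FGFR1 ends and 726 Hi-C pairs in ESC against 533 in NCC (adjusted p 3.88e-09), and Hi-C ends within 25 kb fell from 2465 to 1716 (log2 -0.58).

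At the ESC-only anchors with the lowest Hi-C p-values, mostly 1 library held no pair. All 8 with fewer pairs in NCC, among them anchors in Sept9 (a septin, 2091 pairs in ESC), Pld4, Specc1 and Macrod1, had 1198 to 2091 pairs in ESC and 0 in NCC. Counted over 25 kb on each side, however, the change at these 8 was only -0.53 to 0.11, with 1666 to 4387 ends in ESC and 1790 to 3859 in NCC. Of the 8 with more pairs in NCC, at Ywhag, Ankrd13b, Pepd, Rab35 and Ntng2 among others, 6 had 0 pairs in ESC, and the 25-kb change was -0.096 to 0.17. A count against 0 at an anchor thus said little of the surrounding contacts, and the change over 25 kb is given beside the promoter results below.

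CTCF at single ESC-only anchors was strong in few places. The most CTCF pairs in ESC lay in Fam129b, 100, with 110 in NCC (adjusted p 0.585, exact binomial test), so CTCF was present there in both cell types. The anchor near Glp1r lay 20.5 kb from that gene on the promoter of the transcript AC165951.5 and had 83 CTCF pairs in ESC and 0 in NCC (adjusted p 1.8e-20), also 83 and 0 within 5 kb, while Hi-C pairs were 839 and 695. At Pmvk, a mevalonate kinase, CTCF pairs were 65 and 16 (adjusted p 3.59e-06) and Hi-C pairs 801 and 280. At Itgb7, an integrin gene, they were 66 and 0 (adjusted p 4.1e-16), though 20 NCC pairs lay within 5 kb. In Pml, the nuclear body gene, 87 and 16 pairs overlapped the anchor (adjusted p 7.72e-10), but anchors centred within 5 kb held 27 in each. Other anchors gained CTCF pairs in NCC. In the intergenic anchor 33.3 kb from Sept9 they went from 0 to 63 (adjusted p 3.28e-16), with 40 and 63 within 5 kb, and in Map6, a microtubule protein gene, from 0 to 50 (adjusted p 1.1e-12), with 0 and 73 within 5 kb. At 4.45 kb from Camk2n1, a kinase inhibitor gene, they went from 14 to 99 (adjusted p 3.11e-14) while Hi-C pairs fell from 1067 to 452 (adjusted p 5.13e-61).

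Pluripotency genes held a share of ESC-only anchors on promoters near that of all protein-coding genes, and most of those had fewer Hi-C pairs in NCC. Of 58 promoter anchors of the list, 14 (24.1%) were ESC-only, against 20.2% of all protein-coding promoter anchors. Hi-C was lower in NCC at 10 of the 12 that could be tested and higher at 1, where 1213 of all 3616 ESC-only anchors tested on protein-coding promoters were lower and 1000 higher. Within 25 kb, Hi-C ends were below ESC at 12 of 14, with a median log2 of -0.27, as they were at 2077 of all 3942 ESC-only anchors on protein-coding promoters. The list's promoter anchors found in both cell types also leaned down, 33 of 44 with a median of -0.20, so both kinds of anchor moved the same way.

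The strongest of these lay at Tdgf1, with 67 FGFR1 ends. Its Hi-C pairs were 676 in ESC and 224 in NCC (adjusted p 1.29e-55, exact binomial test), its CTCF pairs 0 and 17, and its 25-kb change -0.30. The anchor at Esrrb, an orphan receptor of naive pluripotency, had 48 ends and no NCC FGFR1 anchor for 17508 bp, with 420 and 142 Hi-C pairs (adjusted p 4.61e-34) and a 25-kb change of -0.84. At Mycn, a Myc family regulator, with 38 ends, Hi-C pairs were 193 and 0 (adjusted p 1.39e-58), 370 and 90 within 5 kb, and the 25-kb change was -0.79. At Nanog, a core factor, with 36 ends, they were 558 and 406 (adjusted p 1.44e-07), while the 25-kb ends, 2069 and 2041, gave only -0.073. L1td1, an RNA-binding protein of ESC, was the exception to the direction, with 53 ends and 718 and 880 Hi-C pairs (adjusted p 0.00197). There, counting anchors centred within 5 kb gave 718 and 0, and the 25-kb change was 0.069, so the direction depended on the window. At Sall4, a zinc finger factor, no Hi-C anchor of either cell type overlapped the FGFR1 anchor, and pairs within 5 kb were 1041 and 769 (adjusted p 3.51e-12), while the ends within 25 kb, 2233 and 2238, gave -0.050.

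Inside gene bodies the same list had 48 ESC-only anchors of 175 (27.4%), with Hi-C lower in NCC at 21 and higher at 9 of 44 tested (9746 and 9401 of 29257 over all ESC-only gene-body anchors), and 25-kb ends below ESC at 37 of 48. Of the list's 127 body anchors in both cell types, 92 also had fewer 25-kb ends in NCC. Esrrb held several: an anchor with 44 FGFR1 ends starting at 86450534 on chromosome 12 had 1020 and 422 Hi-C pairs (adjusted p 9.92e-61, exact binomial test) and one with 33 ends starting at 86441034 had 1020 and 245 (adjusted p 9.47e-117). The ESC count was the same at these neighbours and may hold the same pairs, so the falls may not be separate. A further Esrrb anchor, with 31 ends and starting at 86373777, went the other way, with 0 and 227 Hi-C pairs (adjusted p 2.38e-65) and a 25-kb change of 0.57. These body anchors were named after their values were seen.

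Of the promoter anchors of neural and retinoic acid response genes, 11 of 72 (15.3%) were ESC-only, against 20.2% of protein-coding promoter anchors. Hi-C there was higher in NCC at 8 of 10 tested and lower at 0, where 1000 of all 3616 on protein-coding promoters were higher and 1213 lower. The 25-kb ends were above ESC at 7 of 11, with a median of 0.16, and at 32 of 61 list anchors in both cell types, with a median of 0.030. Meis2, a homeobox partner of Hox proteins, had 36 FGFR1 ends and 152 Hi-C pairs in ESC against 374 in NCC (adjusted p 4.68e-20, exact binomial test), with a 25-kb change of 0.57. Crabp2, which carries retinoic acid to its receptor, had 38 ends and 1015 and 1277 pairs (adjusted p 1.16e-05), with a 25-kb change of 0.35. Stra6, the retinol uptake receptor, had 26 ends and 176 and 879 pairs (adjusted p 3.45e-105), but its 25-kb change was -0.16. Foxp1, a forkhead factor, had 273 and 505 pairs (adjusted p 2.2e-14) with a 25-kb change of -0.14. Hoxb5 had 42 ends and 365 and 542 pairs (adjusted p 3.06e-07), yet 980 and 542 within 5 kb and 3089 and 3083 ends within 25 kb, so its direction also depended on the window. Pbx3, another Hox partner, had 383 and 357 pairs (adjusted p 0.217) with a 25-kb change of -0.20.

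In the bodies of the neural and retinoic acid genes 104 of 365 anchors (28.5%) were ESC-only, with Hi-C lower in NCC at 27 and higher at 39 of 96 tested, beside the 9746 lower and 9401 higher of 29257 over all gene-body anchors of the ESC-only set. An anchor in Cyp26b1, which breaks down retinoic acid, had 50 FGFR1 ends in ESC, 205 and 930 Hi-C pairs (adjusted p 7.06e-103, exact binomial test) and a 25-kb change of 0.46. One in Pbx3 with 62 ends had 201 and 390 (adjusted p 7.97e-13) and 0.31. At Nes, the neural progenitor filament nestin, an anchor with 48 ends had 338 and 260 pairs (adjusted p 0.000648), while its 25-kb ends rose from 1695 to 2644. At Pax6, a neural fate factor, one with 45 ends had 350 and 291 (adjusted p 0.0105). These too were named after their values were seen.

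Genes of the extraembryonic endoderm, a lineage that ESC cultures can also give, had 6 ESC-only promoter anchors of 22 (27.3%, against 20.2% over protein-coding promoters). Hi-C was higher in NCC at 4 of the 6 and lower at 0, beside 1000 higher and 1213 lower of 3616 ESC-only anchors tested over protein-coding promoters. All 6 had more 25-kb ends in NCC, with a median of 0.30, while 10 of the list's 16 anchors in both did so, and 1857 of 3942 ESC-only anchors over protein-coding promoters. In the gene bodies, 25 of 33 ESC-only anchors and 65 of 83 anchors in both had more, with medians of 0.19 and 0.16. There, both kinds of anchor moved alike. On the promoter of Lamb1, a laminin chain, Hi-C pairs were 242 and 391 (adjusted p 1.45e-07, exact binomial test), with a 25-kb change of 0.51. At Afp, alpha-fetoprotein, they were 0 and 217 (adjusted p 1.86e-62) with a 25-kb change of 0.35, and at Dab2, an endocytic adaptor, 0 and 59 (adjusted p 5.44e-17) with 0.23. Gata4, a lineage factor, had 325 and 352 pairs (adjusted p 0.691) with a 25-kb change of 0.40, and Foxa2 338 and 372 (adjusted p 0.55) with 0.13. At the shared promoter of Col4a1 and Col4a2, collagen chains of basement membrane, pairs were 427 and 860 (adjusted p 1.32e-29), but 427 and 181 within 5 kb, and the 25-kb change was 0.24. The share of such cells in the cultures was not measured, and its part in these values was not tested.

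Promoters of the FGF pathway moved in both directions. Of their 58 promoter anchors 12 (20.7%) were ESC-only, against 20.2% of protein-coding promoter anchors. Hi-C was lower in NCC at 2 and higher at 3 of 11 tested, beside 1213 lower and 1000 higher of 3616 over protein-coding promoters. In the gene bodies, with the very wide model of Fgfr2 left out, 62 of 214 anchors (29.0%) were ESC-only, against 30.5% of all gene-body anchors. Hi-C was lower in NCC at 28 of these and higher at 11 of 59 tested. Their 25-kb ends were below ESC at 41 of 62, and at 93 of the 152 anchors in both. With Fgfr2 in, 51 were lower and 41 higher of 146, beside 9746 lower and 9401 higher of 29257 over all ESC-only gene-body anchors. The gene of FGFR1 itself had 1 promoter anchor and 6 in its body, and none was ESC-only. Among the ligands, Fgf4, which ESC secrete, had 35 FGFR1 ends, 508 and 567 Hi-C pairs (adjusted p 0.325, exact binomial test) and 33 and 10 CTCF pairs (adjusted p 0.00339), with a 25-kb Hi-C change of -0.063. Fgf8 had 197 and 188 Hi-C pairs (adjusted p 0.534) and 0.11. Among the other receptors, named after their values were seen, Fgfr3 had 417 and 168 Hi-C pairs (adjusted p 1.63e-26) and a 25-kb change of -0.58. Fgfr2 had 0 and 126 (adjusted p 3.25e-36) and 0.48, and Fgfr4 had 458 and 489 (adjusted p 0.763) and -0.14. Downstream, Etv5, a target factor of the pathway, had 509 and 547 pairs (adjusted p 0.678), though its 25-kb ends were 2119 and 1343. Spred2, an inhibitor of Ras signalling, had 369 and 310 (adjusted p 0.0121) with a 25-kb change of -0.25. Mapk3, the kinase ERK1, had 299 and 337 (adjusted p 0.405) with -0.22, and Ep300, a relative of CBP, 112 and 168 (adjusted p 0.0053) with 0.20.

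Promoters of architectural protein genes, the CTCF, cohesin and condensin genes among them, almost never carried an ESC-only anchor. They held 1 of 49 (2.04%), against 20.2% of protein-coding promoter anchors, a count given without a test since FGFR1 values fix it. The 1 anchor was at Ctcf, with 21 FGFR1 ends, 134 and 221 Hi-C pairs (adjusted p 5.13e-05, exact binomial test), a 25-kb change of -0.097, and 15 and 12 CTCF pairs (adjusted p 0.934). The bodies of the list's genes did carry such anchors: 38 of 193 (19.7%) were ESC-only, against 30.5% of all gene-body anchors.

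**Figure D5:**
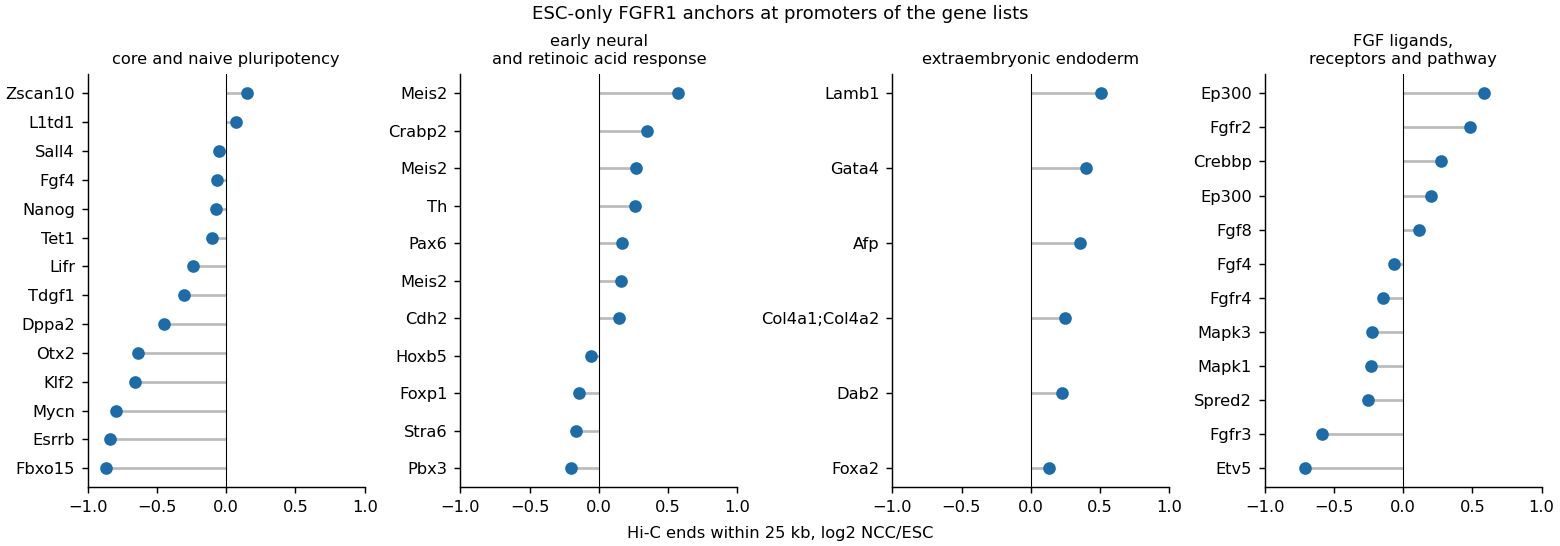
Hi-C ends within 25 kb of the centre of each ESC-only promoter anchor, as log2 of NCC over ESC after scaling, 1 point an anchor with its gene. Shown are the pluripotency, neural and retinoic acid, endoderm and FGF pathway lists, and the architectural list is left out. Of the pluripotency anchors 12 of 14 lie below 0, and all 6 endoderm anchors lie above it.

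Most stretches between NCC anchors that held an ESC-only anchor held only 1. Along the ESC anchors, the next one was also ESC-only after 36.7% of ESC-only anchors, where 32.8% of all anchors were ESC-only. Of the 48549 stretches between NCC FGFR1 anchors that held 1 or more, 37854 held a single one and 404 held 5 or more, 2457 anchors in all. The share of anchors that were ESC-only had a median of 32.8% over 1-mb bins of the genome and ran from 9.68% to 69.4%, and by chromosome it ran from 30.6% to 34.6%. The fullest stretch, 143 kb near Stt3b (chr9:115480224-115623373), held 19 ESC-only anchors with 341 ends, and its Hi-C ends were 1876 in ESC and 1255 in NCC while its CTCF ends were 16 and 61. A stretch near Otol1 (chr3:71318807-71490886) held 17, with 151 Hi-C ends in ESC and 14 in NCC.

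Such stretches did not share a direction in Hi-C: of the 10 fullest, 5 were lower in NCC and 5 higher. The stretch over Aim2 and its neighbours Ifi206, Ifi208, Ifi209, Ifi213 and Ifi214, interferon-inducible DNA sensors (chr1:173456493-173715600), held 13 ESC-only anchors and 177 FGFR1 ends in ESC and none in NCC. There Hi-C and CTCF went the other way, with no anchor in ESC and 310 Hi-C and 64 CTCF ends in NCC. These genes are close copies of each other, so read placement there is less certain. The stretch in Adamts17, a metalloprotease gene (chr7:66847509-66965053), held 12, with 1120 Hi-C ends in ESC and 1884 in NCC, and 72 and 45 CTCF ends. A stretch with no protein-coding gene near Pcdh17, a protocadherin (chr14:83933147-84266603), held 14, with 370 and 136 Hi-C ends. These 10 were ranked by their number of ESC-only anchors, and the values were not tested.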

How the data were processed

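Hi-C, FGFR1 HiChIP and CTCF HiChIP were measured in ESC and NCC. The authors processed reads with HiC-Pro and assigned valid pairs to anchors with hichipper on mm10, and the deposited tables give counts of read pairs for each pair of anchors, with 2 replicates merged (versions were not given in the sources used here). All 1245685 distinct anchor intervals checked began and ended at GATC. Groups come from the sample labels.

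Ends were summed per anchor, pairs inside it left out. Features came from GENCODE M21. Read pairs at an anchor are those of all anchors of an assay that overlap it, each pair once for pooled sums. An exact two-sided binomial test compared pairs of ESC and NCC against the libraries' autosomal totals between anchors, for the sum and for each anchor with at least 10 pairs, and a Cochran-Mantel-Haenszel test over 8 strength classes (6, 7, 8, 9, 10-11, 12-14, 15-19 and 20 or more ends) compared the change with anchors in both. Benjamini-Hochberg adjustment ran over the whole table, with a threshold of 0.05. Log2 ratios of single anchors used 0.5 added pairs. With 1 pooled library per cell type and assay, tests compare libraries and cover at most counting error, and pairs amplified by PCR are not independent molecules. The Cochran-Mantel-Haenszel test counted a pair at each anchor it touched, so the same pair can enter more than once, also on both sides of the comparison. Its intervals and p-values therefore understate counting error. The code was tested on simulated data. Some sequences are not reported here.

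Regions named are the 10 with most FGFR1 ends, the 8 with lowest Hi-C and 5 with lowest CTCF p in each direction, the 10 with most CTCF pairs in ESC, and up to 6 promoter anchors a gene list by FGFR1 ends. The anchors, gene lists and tests were chosen with earlier results of these data known. Alternatives changed the minimum of ends, the gap to NCC anchors, the overlap rule, the distance of pairs, pairs inside an anchor, length classes and the promoter definition. Python 3.11.15, numpy 2.4.6, pandas 2.3.3, scipy 1.17.1, statsmodels 0.14.6 and matplotlib 3.10.9 were used.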

Additional observations from a re-analysis of the deposited data

How the results depend on the processing

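No paired analysis was possible because the replicates that share numbers in the labels were merged in the deposited tables, and leaving out a replicate was not possible for the same reason. Of the recomputed values, 50 kept their direction and side of the threshold (counts: within 1.5 times), though not always their size, 17 moved and 2 reversed, the 2 named at the end. Requiring no NCC anchor within 5 kb left 16910 ESC-only anchors, with 4489 lower and 3932 higher Hi-C calls and 1219 lower CTCF calls, since fewer anchors remain. Lower CTCF calls numbered 2448 from pairs at least 20 kb apart and 8564 with no minimum of pairs. The promoter share was 3.65% by the anchor midpoint (5.03% of anchors in both), 12.4% with promoters on both sides of the start (15.3%), 6.16% for protein-coding genes (9.09%), 10.9% at 10 or more ends (14.6%) and 8.85% with no NCC anchor within 5 kb (12.1%), below that of anchors in both each time. The share under an ESC CTCF anchor was 27.6% with the larger part of the anchor covered (44.5%), 31.9% for CTCF anchors with 4 or more ends (50.9%) and 37.2% at 10 or more FGFR1 ends (58.7%). With anchors of the assay in both cell types only, an alternative chosen after seeing the data, the Hi-C difference from anchors in both reversed to 0.0019 and the CTCF change at ESC-only anchors to 0.020, and the cause was not tested. The median ESC-only anchor had 0 CTCF pairs in either cell type, which limits single CTCF calls, and whether this reflects depth or where CTCF anchors were placed was not tested.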
